A study of Mus musculus with 18 samples.

Results

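The miR-26 family is encoded by 3 mouse hairpins, each of which lies within an intron of a Ctdsp phosphatase gene. Members were taken by name from a small RNA count table of 1907 mature mouse miRNAs, of which 1232 had at least 1 read. The 3 members are mmu-miR-26a-5p, mmu-miR-26b-5p and mmu-miR-26b-3p. The same hairpins also give mmu-miR-26a-1-3p and mmu-miR-26a-2-3p, which are described beside the members for comparison.

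miR-26 is transcribed together with its host genes, which encode small C-terminal domain phosphatases that act on RNA polymerase II and can keep the retinoblastoma protein in its active state. The 5p strand of each hairpin is the usual guide, loaded into Argonaute to repress mRNAs matching its seed, and the 3p strand is the usual passenger. Ezh2, the histone H3 lysine 27 methyltransferase of the Polycomb repressive complex, is a well-known target of miR-26a, and the family is known for restraining the cell cycle and rising as cells differentiate.

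The libraries came from NIH/3T3, an established mouse embryonic fibroblast line, and asked which small RNAs carry pseudouridine (Ψ), the uridine isomer made by enzymes such as Pus1. Small RNA was sequenced directly (input) or after capture with an antibody against Ψ (IP). RNA below 200 nt was isolated first, and the paper's IP method describes a narrower size cut from a gel before capture. The cells were WT, or had undergone Pus1 knockdown, made by siRNA, for 3 days (KD3) or 6 days (KD6). Each of the 6 groups held 3 libraries, named A, B and C, which gave 18 libraries in all. All cells were of the same line, the labels do not say whether replicates were separate cultures, and p-values may therefore measure technical spread only. The IP reports enrichment of whole RNA molecules and gives no position for Ψ. Pus1 mRNA and the Ctdsp host mRNAs were not measured by these libraries.

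Mapped reads were 241109 in KD6 input A, by far the shallowest library, and between 3989031 and 15099781 in the other 17. In WT, reads outside the miRNA rows took 5.60% ± 0.224 (SD, n = 3) of the input total and 16.8% ± 1.88 of the IP total. They reached 9.66% ± 0.275 in KD3 input, 32.4% ± 5.26 in KD3 IP, 8.82% ± 1.68 in KD6 input and 27.6% ± 3.83 in KD6 IP. In input, 6 of 6 fibroblast or mesenchymal marker miRNAs had reads. Together they reached 412990 to 585126 CPM, the counts in every 1000000 miRNA reads. Markers of haematopoietic cells reached at most 1.08, of epithelial cells 2.86 and of embryonic stem cells 0.0913 CPM. Markers without reads in any input library were miR-142a-3p, miR-141-3p, miR-203-3p, miR-290a-5p, miR-291a-3p and miR-294-3p. Neural markers together reached 3354 to 4017 CPM and the hepatocyte miRNA miR-122-5p 23.1 to 84.6 CPM in input. Most of the neural sum was miR-9-5p, with an input median of 3286 CPM. The medians of miR-128-3p and miR-124-3p were 359 and 0 CPM.

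The mature sequences, as RefSeq gives them for GRCm38.p6, are shown because the family is defined by its seed (bases 2 to 8 from the 5′ end), printed in capitals.
mmu-miR-26a-5p: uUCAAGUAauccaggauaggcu
mmu-miR-26b-5p: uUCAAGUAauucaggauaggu
mmu-miR-26b-3p: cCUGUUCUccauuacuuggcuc
mmu-miR-26a-2-3p: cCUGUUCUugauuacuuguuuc
mmu-miR-26a-1-3p: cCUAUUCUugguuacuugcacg

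The 2 guide strands shared the seed UCAAGUA with no other of the 1679 mature mouse miRNAs in that reference. Counted from the 5′ end of miR-26a-5p, they differed by the substitutions C11U and C21U over 21 compared positions, and miR-26a-5p was 1 nt longer. Both start with uridine. miR-26a-5p holds 6 uridines and miR-26b-5p holds 7, of which 2 lie in the seed in each. The passenger strands start with cytidine and hold more uridine, with 9 in miR-26b-3p, 9 in miR-26a-1-3p and 12 in miR-26a-2-3p, of which 4 lie in the seed in each. miR-26b-3p and miR-26a-2-3p share the seed CUGUUCU with miR-6932-3p and miR-7039-3p, whereas CUAUUCU belonged to miR-26a-1-3p alone in the reference.

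The hairpins are shown with both mature arms in capitals, because the 5p strand of miR-26a is the same 22 bases in a pair of different hairpins.
Mir26b: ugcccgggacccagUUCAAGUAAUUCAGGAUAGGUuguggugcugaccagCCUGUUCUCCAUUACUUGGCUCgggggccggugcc
Mir26a-1: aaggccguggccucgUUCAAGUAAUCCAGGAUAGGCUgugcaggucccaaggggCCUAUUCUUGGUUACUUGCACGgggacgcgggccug
Mir26a-2: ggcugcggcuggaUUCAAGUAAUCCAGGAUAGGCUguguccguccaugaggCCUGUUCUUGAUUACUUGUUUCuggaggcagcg

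On GRCm38, Mir26b lies at chr1:74394310-74394394, in intron 4 of the 6 introns of Ctdsp1. Mir26a-1 lies at chr9:119031796-119031885, in intron 5 of the 7 introns of the longest Ctdspl transcript. Mir26a-2 lies at chr10:126995530-126995613, in intron 5 of the 7 introns of Ctdsp2. All 3 hairpins and hosts are on the plus strand, and each hairpin was intronic in every GENCODE transcript that spans it (2, 3 and 1 transcripts). Reads of miR-26a-5p cannot be assigned to Ctdspl or Ctdsp2, and its rows for the 2 hairpins, which share the reads between them, differed by at most 125 reads, or 0.0794% of their sum.

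miR-26a-5p dominated the family in these fibroblasts. Over the 18 libraries it gave 94.4% of the reads of the 3 hairpins, miR-26b-5p gave 5.45%, miR-26a-2-3p 0.135%, miR-26b-3p 0.0160% and miR-26a-1-3p 0.00297%. The 5 strands together took a share of all miRNA reads of 0.95% ± 0.0222 (SD, n = 3) in WT input and of 2.16% ± 0.0503 in WT IP. The share was 1.09% ± 0.0167 in KD3 input, 2.87% ± 0.816 in KD3 IP, 1.24% ± 0.419 in KD6 input and 2.89% ± 0.432 in KD6 IP. By abundance miR-26a-5p ranked between 9 and 16 among the miRNAs of each library, and miR-26b-5p between 31 and 105.

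Levels below are in CPM of median-ratio scaled library size, the scaling that the study used. In WT input, miR-26a-5p stood at 8037, 7958 and 7778 CPM in libraries A, B and C, and in WT IP at 18896, 19388 and 20862 CPM. The IP libraries lay above all 3 inputs and the spread within each group was narrow. In KD3 the inputs held 10225, 9755 and 9745 CPM and the IPs 26238, 23668 and 35837 CPM. In KD6 the inputs held 8008, 11027 and 9197 CPM and the IPs 53205, 33685 and 29229 CPM. IP and input did not overlap in any of the 3 conditions. The same was true, in either direction, of 76% of all 550 miRNAs tested in WT, 75.5% in KD3 and 59.3% in KD6. In these scaled values the IP libraries varied most in KD6, where A was the highest of all 18. That order depends on the scaling. As a share of miRNA reads, KD3 IP C (3.59%) was above KD6 IP A (3.25%), and the SD was 0.753 in KD3 IP and 0.465 in KD6 IP.

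miR-26b-5p gave fewer reads than miR-26a-5p in every library, a comparison that the sequence bias of adapter ligation can shift, and showed the same division. WT inputs held 325, 370 and 407 CPM and WT IPs 1124, 1106 and 1359 CPM. KD3 inputs held 331, 341 and 383 CPM and KD3 IPs 775, 1525 and 2173 CPM. KD6 inputs held 311, 631 and 1091 CPM and KD6 IPs 1954, 1854 and 3030 CPM. Again the IPs lay above the inputs in each condition, a separation that most miRNAs tested had in one direction or the other. Replicate C was the highest of each group. KD6 input A rested on only 62.9 estimated reads of miR-26b-5p and 1622 of miR-26a-5p.

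miR-26b-3p was barely detected. Its estimated counts were 39, 36.5 and 44 in WT input and 2, 5 and 18 in WT IP. They were 52.5, 18.5 and 17 in KD3 input and 0, 2 and 3.3 in KD3 IP, and 1, 28 and 34 in KD6 input and 0, 6 and 11 in KD6 IP. A count of 0 allows up to 3 counts, which is 1.12 CPM in KD3 IP A and 1.21 CPM in KD6 IP A. In CPM the IPs lay below all inputs in KD3 and KD6. Of all 550 miRNAs tested, 75.5% in KD3 and 59.3% in KD6 did not overlap, in either direction. The gap in KD6 was narrow, with IP B at 2.74 CPM and input C at 2.84 CPM, and KD6 input A held 1 read. WT IP C (2.73 CPM) reached above WT input B (2.62 CPM). miR-26a-1-3p had 59 reads in all 18 libraries and was too low to be tested.

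**Figure D1:**
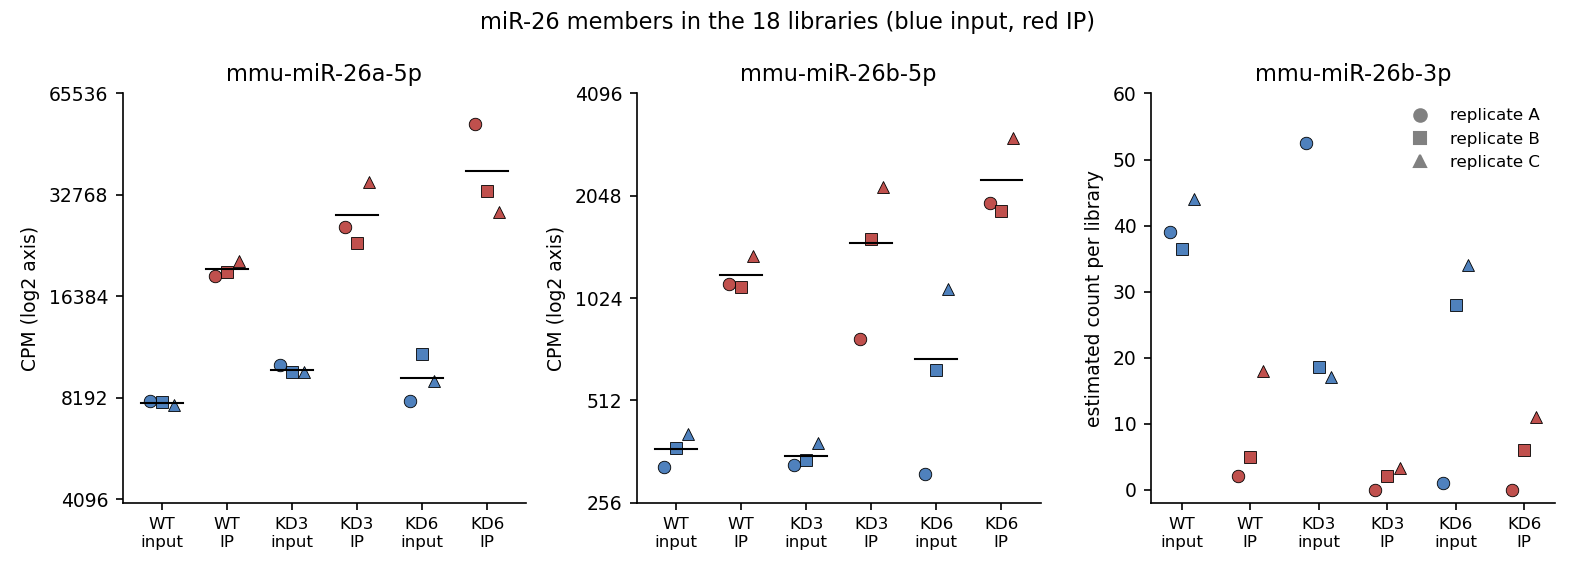
The first 2 panels plot CPM (log2 axis) of miR-26a-5p and miR-26b-5p and the last panel plots the estimated count of miR-26b-3p, for each library of the 6 groups; symbols give replicates A to C, blue is input, red is IP and bars are group means. Both guide strands lie higher in IP than in input in each condition, and miR-26b-3p has no more than 18 reads in any IP library.

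The first question was whether the family was enriched by the antibody in unmodified cells. In WT, miR-26a-5p was 2.49-fold higher in IP than in input (log2 ratio 1.31 ± 0.20 SE, adjusted p = 5.8e-06, edgeR's quasi-likelihood test with Benjamini-Hochberg adjustment over 550 miRNAs, n = 3 against 3). miR-26b-5p was 3.26-fold higher (log2 ratio 1.70 ± 0.34 SE, adjusted p = 0.00015). Such a call was common, since 68.9% of all 550 miRNAs tested passed the same test, 31.5% of them all being higher in IP and 37.5% lower, and 76% did not overlap between the groups. Among the 550, miR-26b-5p ranked 99 and miR-26a-5p ranked 135 from the highest log2 ratio. The guide strands thus sat in the upper part of the distribution, whose median log2 ratio was -0.04, without being among its extremes.

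The passenger strands did not show enrichment. miR-26b-3p had a log2 ratio of -1.14 ± 0.62 SE (adjusted p = 0.108 by the same edgeR test) in WT, and miR-26a-2-3p had -0.14 ± 0.21 SE (adjusted p = 0.58). Summed over replicates, 25 IP reads against 120 input reads of miR-26b-3p gave a ratio of scaled counts of 0.479 with an exact 95% interval of 0.298 to 0.742, an interval that covers counting error only. WT IP C alone held 18 of those IP reads, and without it the log2 ratio was -2.13 with an adjusted p of 0.0218. It also passed with all libraries kept under TMM scaling (adjusted p = 0.049), with all mapped reads as library size (0.041) and when fitted on the WT libraries alone (0.038), so whether it passed in WT depended on the scaling and fit as well as on that library.

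Both guide strands were also enriched after knockdown of Pus1. In KD3, miR-26a-5p had a log2 ratio of 1.53 ± 0.20 SE (adjusted p = 9.3e-07, edgeR) and miR-26b-5p of 2.08 ± 0.34 SE (adjusted p = 1.7e-05). In KD6, the values were 2.04 ± 0.20 SE (adjusted p = 1.4e-08) for miR-26a-5p and 1.71 ± 0.34 SE (adjusted p = 0.00014) for miR-26b-5p. In KD3, 70.5% of all miRNAs passed (34.4% higher in IP, 36.2% lower) and 75.5% did not overlap, and in KD6 71.3% passed (35.8% higher, 35.5% lower) and 59.3% did not overlap. miR-26a-5p ranked 126 in KD3 and 121 in KD6, and miR-26b-5p ranked 74 and 140.

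The size of the ratios depended on the scaling. The share of reads outside the miRNA rows, given above, was higher in IP than in input, and its part in the ratios was not tested beyond these scalings. With all mapped reads as library size, the log2 ratio of miR-26a-5p was 0.98 in WT, 0.94 in KD3 and 0.91 in KD6, all of them past the threshold. The miR-26b-5p call in KD6 was lost under the same scaling, at 0.59 (adjusted p = 0.200), and with the summed miRNA counts and no scaling factors, at 0.92 (adjusted p = 0.063). Without the shallow KD6 input A the miR-26b-5p ratio in KD6 was also lower, at 0.95 (adjusted p = 0.0124). The miR-26a-5p ratio in KD6 was then 1.47, against 2.04 in the reported fit, and still passed (adjusted p = 2.5e-06, edgeR). Scaled to all mapped reads, 122 miRNAs were higher and 245 lower in KD3 IP, against 189 and 199 in the reported fit, and 109 were higher and 290 lower in KD6 IP, against 197 and 195. The median of all miRNAs moved to -0.61 in KD3 and -1.16 in KD6 under that scaling. Relative to the median of all miRNAs tested under the same setting, the fits over the scalings, filters, blocks and left-out libraries tried put miR-26a-5p 1.24 to 1.43 above in WT, 1.32 to 1.61 in KD3 and 1.71 to 2.23 in KD6. For miR-26b-5p the corresponding ranges were 1.56 to 1.83, 1.69 to 2.36 and 1.29 to 2.09.

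**Figure D2:**
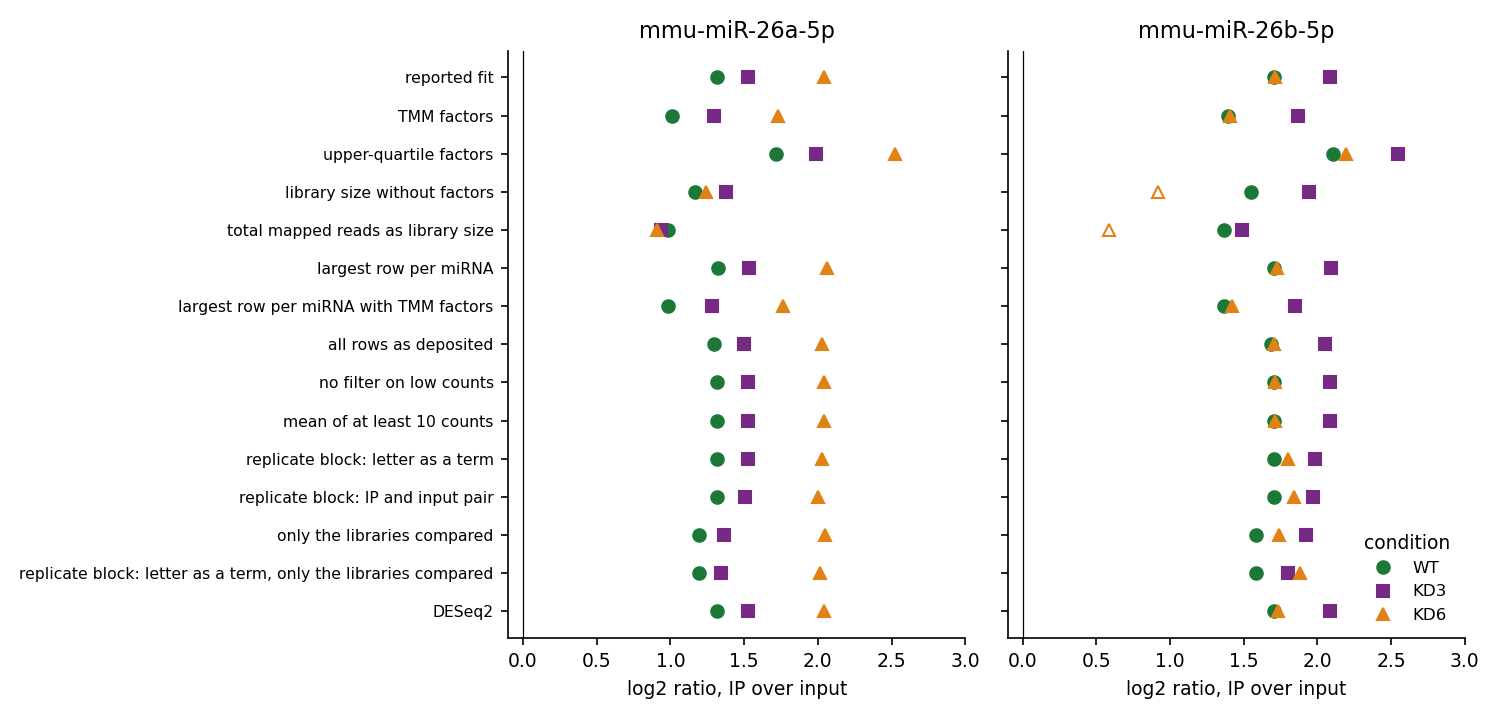
Log2 ratio of IP over input (x axis) for miR-26a-5p and miR-26b-5p under the reported fit and each alternative (y axis), with conditions by symbol; filled symbols passed an adjusted p of 0.05 and open symbols did not. The 2 open symbols belong to miR-26b-5p in KD6, and every value lies above 0.

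The passenger strands again behaved differently. miR-26b-3p was lower in KD3 IP (log2 ratio -2.45 ± 0.84 SE, adjusted p = 0.0132, edgeR), a fitted value that depends on a group with counts of 0, 2 and 3.3. The summed counts of 5 against 88 gave a scaled ratio of 0.171 with an exact 95% counting interval of 0.0543 to 0.416. This call was lost when KD3 input A, KD3 IP A or KD3 IP C was left out (adjusted p = 0.0720, 0.0527 and 0.0506). In KD6 its log2 ratio was -1.04 ± 0.72 SE (adjusted p = 0.207), and 17 reads against 63 gave 0.524 with an interval of 0.288 to 0.907. miR-26a-2-3p, the passenger with enough reads for a firmer statement, stood at 15.0, 17.3 and 19.6 CPM in KD3 IP and at 20.3, 17.0 and 17.3 CPM in KD3 input, which overlap. Its log2 ratios were -0.06 ± 0.22 SE in KD3 (adjusted p = 0.83) and 0.00 ± 0.24 SE in KD6 (adjusted p = 0.99).

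**Figure D3:**
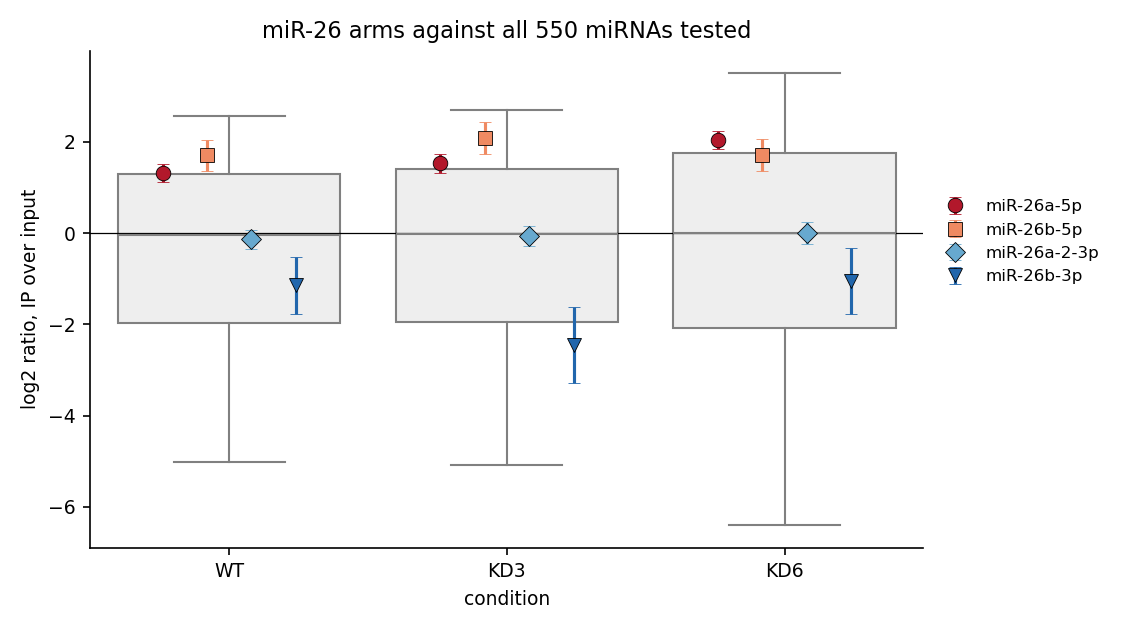
Log2 ratio of IP over input (y axis) in WT, KD3 and KD6 (x axis) for 4 strands of the miR-26 hairpins, with standard errors; grey boxes give the quartiles and median, and whiskers the 5th to 95th percentiles, of all 550 miRNAs tested. The 5p strands lie near or above the upper quartile, miR-26a-2-3p lies near 0 and miR-26b-3p lies below 0.

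Ratios between strands of the same library need no scaling. They were compared by a two-sided exact permutation test of the library labels within conditions, with Benjamini-Hochberg adjustment over 16 such tests. In ratios of a guide to a passenger strand, 1 count was added to each strand. The log2 ratio of miR-26b-5p to miR-26b-3p rose from 6.78 ± 0.34 (SD, n = 3) in WT input to 9.80 ± 0.85 in WT IP. It rose from 7.24 ± 0.72 to 11.02 ± 0.62 in KD3 and from 6.95 ± 1.80 to 10.61 ± 1.54 in KD6. Over the 3 conditions the IP libraries were higher by 3.49 (permutation p = 0.00025, the smallest that this design allows; adjusted p = 0.002), and in each condition alone the groups were fully separated, for which 3 against 3 libraries cannot give an exact p below 0.1. The low counts of miR-26b-3p make the size of this ratio depend on the added count.

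The same held for miR-26a-5p against miR-26a-2-3p, a ratio chosen after the values had been seen. It was higher in IP by 1.72 on the log2 scale over the 3 conditions (exact permutation p = 0.00025, the smallest possible, adjusted p = 0.002), at 1.44 in WT, 1.56 in KD3 and 2.16 in KD6. This denominator stems from Mir26a-2, whereas the 5p reads stem from either miR-26a hairpin. Of the reads of the 2 miR-26a passenger strands, miR-26a-2-3p gave 98.1% ± 1.31 (SD, n = 3) in WT input and 97.8% ± 2.07 in WT IP. Across groups the mean share lay between 96.5% and 99.3%, and IP and input differed by -0.77 percentage points over the 3 conditions (exact permutation p = 0.53), a difference whose sign rested on KD6 IP A, without which it was 0.12.

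As a description over all miRNAs tested, 142 pairs of 5p and 3p arms matched by name. miR-26a is not among these pairs, because its 3p strands carry the number of their hairpin. The 5p arm had the higher log2 ratio in 71 of the pairs in WT, 72 in KD3 and 69 in KD6. The excess of the 5p over the 3p log2 ratio of miR-26b was 2.85 in WT, 4.54 in KD3 and 2.75 in KD6, which ranked 22, 9 and 30 from the highest of the 142. Over all these pairs, then, the 5p arm was the higher about as often as the 3p arm. Among the 475 tested miRNAs with a reference sequence, the median WT log2 ratio was 0.52 for the 201 that start with uridine and -0.13 for the 102 that start with cytidine. It was -0.21 for the 162 with 6 or 7 uridines and 0.71 for the 71 with 9 or more. In WT the guide strands of miR-26 thus lay above the median of miRNAs with 6 or 7 uridines, and miR-26b-3p below the median of those with 9 or more. The number of uridines and the log2 ratio were weakly related over the 475 miRNAs (Pearson r = 0.06 in WT, 0.06 in KD3 and 0.09 in KD6).

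The 2 guide strands were not shown to differ in enrichment. miR-26a-5p was 24.7, 21.5 and 19.1 times as abundant as miR-26b-5p in WT input A, B and C, and 16.8, 17.5 and 15.4 times in WT IP. In KD3 it was 30.9, 28.6 and 25.4 times as abundant in input and 33.9, 15.5 and 16.5 times in IP, and in KD6 25.8, 17.5 and 8.43 times in input and 27.2, 18.2 and 9.65 times in IP. The WT groups did not overlap, whereas the KD3 and KD6 groups did. Over the 3 conditions the log2 ratio was 0.25 lower in IP, written as -0.25 (exact permutation p = 0.32, adjusted p = 0.52). The differences within conditions were -0.39 in WT (exact p = 0.1, the smallest possible), -0.46 in KD3 (exact p = 0.4) and 0.11 in KD6 (exact p = 0.7). In KD6 the letters lay apart from each other, and input and IP of the same letter lay close together.

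**Figure D4:**
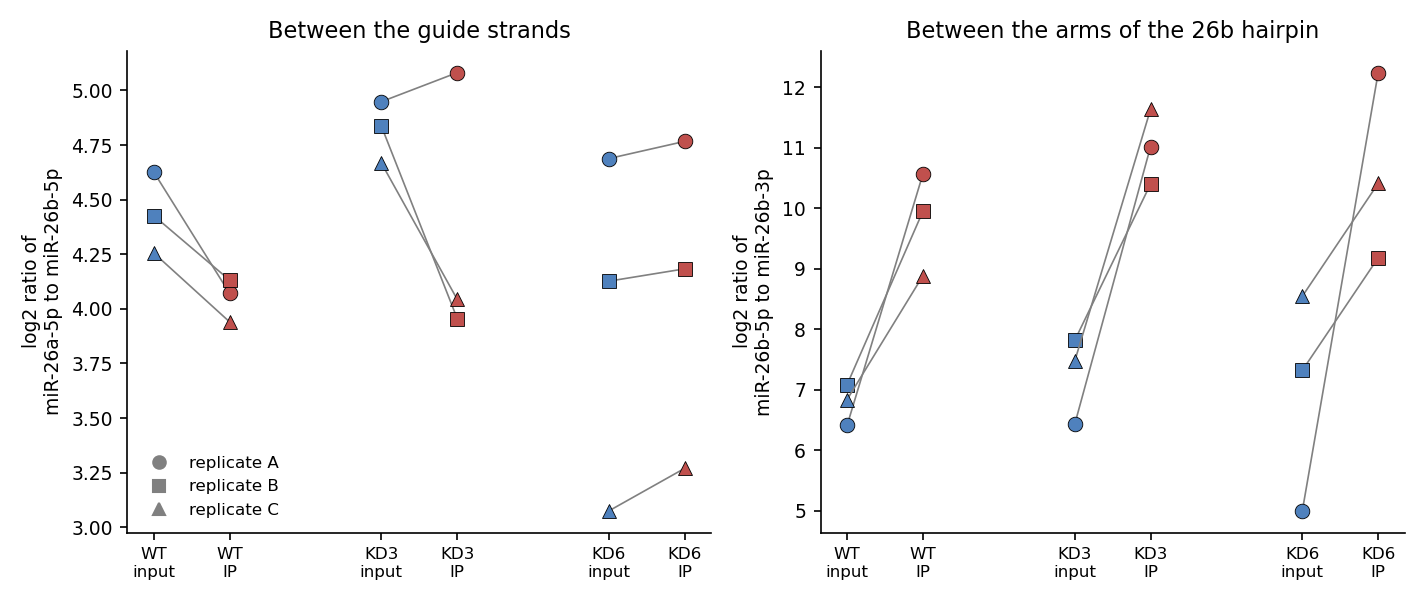
Log2 ratio of miR-26a-5p to miR-26b-5p (first panel) and of miR-26b-5p to miR-26b-3p (second panel) in each library; blue is input, red is IP, symbols give replicates and grey lines join libraries of the same letter within a condition. In the first ratio IP lies below input in WT, whereas IP and input overlap in KD3 and KD6. The second ratio is higher in IP in each condition. The letters were not shown to pair IP with input.

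The second question was whether enrichment changed with Pus1 knockdown, tested as the difference between log2 ratios. For miR-26a-5p the change was 0.21 ± 0.28 SE from WT to KD3, 0.72 ± 0.28 SE from WT to KD6 (adjusted p = 0.163, edgeR) and 0.51 ± 0.28 SE from KD3 to KD6 (adjusted p = 0.298). For miR-26b-5p it was 0.38 ± 0.47 SE, 0.01 ± 0.47 SE and -0.37 ± 0.47 SE. None of these passed, and over all miRNAs 0%, 0% and 0.182% of the 550 did, with 16, 119 and 112 at an unadjusted p under 0.05. DESeq2 called 0, 23 (20 higher, 3 lower) and 13 (9 higher, 4 lower) of them. With all mapped reads as library size 0, 51 and 8 of 568 passed, all of them lower, and without KD6 IP C 57 and 63 of 593 passed in the comparisons with KD6. The 95% interval of the WT to KD6 change, not adjusted for the number of miRNAs, reached from 0.18 to 1.27 for miR-26a-5p and from -0.91 to 0.93 for miR-26b-5p, so changes of these sizes could not be told from none after adjustment.

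The size of the KD6 change of miR-26a-5p moved with single libraries. It was 0.44 without KD6 input A and 0.44 without KD6 IP A (adjusted p = 0.379 and 0.390), and it passed without KD6 IP C, at 0.87 (adjusted p = 0.0463), where 57 of 593 miRNAs passed (39 higher and 18 lower). With all mapped reads as library size it was -0.07. For miR-26b-5p the change from WT to KD6 was -0.47 without KD6 input A and -0.63 with no scaling factors. miR-26b-3p changed by -1.31 ± 1.08 SE, 0.10 ± 0.96 SE and 1.41 ± 1.14 SE (adjusted p = 1.0, 0.97 and 0.48), values that its counts leave very wide. These comparisons share the WT, KD3 or KD6 libraries with each other.

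The third comparison was of abundance in input, which asks whether the level of the family moved with the knockdown. Here 0% of miRNAs passed from WT to KD3 (44 at an unadjusted p under 0.05 in edgeR, and 8 called by DESeq2), 3.09% from WT to KD6 and 4% from KD3 to KD6. miR-26a-5p was higher in all 3 KD3 inputs than in any WT input, with a log2 difference of 0.32 ± 0.20 SE (adjusted p = 0.80, n = 3 against 3), and 30.7% of all miRNAs did not overlap between these groups. Same-letter inputs of WT and KD3 correlated (r = 0.20 to 0.60), which the reported fit did not use. Fitted on these 6 libraries alone, whose own spread was smaller than that of the 18, the difference was 0.33 (adjusted p = 0.0042, edgeR). With the replicate letter as a block in that fit it was 0.33 (adjusted p = 0.0032). In these fits 75 and 82 of 530 miRNAs passed. With the letter block over all 18 libraries the difference was 0.32 (adjusted p = 0.80). In the reported fit, the difference of miR-26a-5p was 0.25 ± 0.20 SE from WT to KD6 (adjusted p = 0.63). From KD3 to KD6 it was -0.07 ± 0.20 SE (adjusted p = 0.88).

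miR-26b-5p differed by -0.06 ± 0.33 SE in input from WT to KD3, by 0.92 ± 0.33 SE from WT to KD6 (adjusted p = 0.188, edgeR) and by 0.98 ± 0.34 SE from KD3 to KD6 (adjusted p = 0.132). KD6 input B and C lay above all WT and KD3 inputs, and the shallow KD6 input A lay below them. Without KD6 input A the differences passed, at 1.26 (adjusted p = 0.0181) and 1.29 (adjusted p = 0.0092), where 31 and 50 of 596 miRNAs passed. Without KD6 input C they were 0.41 (adjusted p = 0.80) and 0.46 (adjusted p = 0.66). They also passed with no filter on low counts (adjusted p = 0.0067 and 0.0020), where 17 and 23 of 1212 miRNAs did. miR-26b-3p differed by -0.44, 0.05 and 0.49 in the same order (adjusted p = 0.89, 0.99 and 0.75, edgeR). The order of input levels within each group was miR-26a-5p, then miR-26b-5p, then miR-26a-2-3p, then miR-26b-3p, with no overlap between neighbours in the scaled values.

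miR-26a shares Ezh2 as a known target with miR-101a-3p, miR-101b-3p, miR-138-5p and miR-214-3p, and these 4 were examined as a list. The list was chosen with earlier results of these data known and need not hold every miRNA that targets Ezh2. miR-101a-3p and miR-101b-3p are of the same family. Its values therefore do not stand for such miRNAs in general. Within the list, 4 of 4 were lower in IP than in input in WT (median log2 ratio -4.42, against -0.04 over all miRNAs) and 4 of 4 in KD3 (median -3.69). In KD6, 3 of 4 passed (median -2.89), and over all miRNAs 37.5%, 36.2% and 35.5% were lower in the respective IPs. In KD6, miR-138-5p had -2.08 (adjusted p = 0.056, edgeR). miR-101a-3p, the most depleted in WT, had log2 ratios of -5.48 ± 0.24 SE in WT, -5.32 ± 0.24 SE in KD3 and -4.48 ± 0.23 SE in KD6. None of the 4 passed the test of a change in enrichment between conditions. In input, miR-214-3p, which is abundant in mesenchymal cells, was lower in KD6 than in WT by a log2 difference of -0.84 (adjusted p = 0.0064) and than in KD3 by -0.94 (adjusted p = 0.0061), and none of the other members passed.

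The miRNAs whose log2 CPM followed miR-26a-5p most closely over the 18 libraries, among 148 with a mean of at least 100 CPM, were let-7c-5p (Pearson r = 0.976), let-7a-5p (0.973) and let-7g-5p (0.970), members of a differentiation-linked family. Those closest to miR-26b-5p were the muscle miRNA miR-206-3p (0.934), then miR-98-5p (0.931) and let-7b-5p (0.919), which are both of the let-7 family. The correlation of the 2 guide strands with each other was 0.878. The 18 points share the division into IP and input, and its part in these correlations was not tested. let-7c-5p, for example, had log2 ratios of 1.25, 1.51 and 2.28 in WT, KD3 and KD6, and miR-206-3p had 1.97, 2.09 and 1.85.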

How the data were processed

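Small RNA libraries of NIH/3T3 cells (6 groups, 3 libraries each) were analysed. Members and lists were chosen with earlier results of these data known. The authors mapped reads with the SeqImp pipeline (version not given in the sources used here) to mm10 with Ensembl and miRBase annotation, and deposited estimated counts per mature miRNA and hairpin, where reads that match several rows are split between those rows, so 47.0% of the values above 0 were fractional. RNA was eluted from the beads with Ψ triphosphate, and the library kit adds no molecular identifiers, so intervals cover counting error only. The deposited numbers of distinct read sequences served as an alternative for ratios between strands.

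Rows of 1 mature miRNA were summed (78 had several) and rounded. Scaling was by median ratios, as in the study. miRNAs were filtered by filterByExpr (550 of 1907 kept), and 6 group means were fitted over all 18 libraries with edgeR 4.0.16 (limma 3.58.1, R 4.3.3), its quasi-likelihood test and Benjamini-Hochberg adjustment; calls have an adjusted p under 0.05. The same scripts were tested on simulated data. Ratios between strands were compared by exact permutation tests over libraries, with 1 count added to each strand in ratios of a guide to a passenger. The named genes were the 3 members, the other strands of their hairpins, the 4 miRNAs of the Ezh2 list, and the 3 miRNAs most correlated with each guide strand. The reported fit held no term for the replicate letter. Whether letters pair libraries was checked by correlating deviations from group means over 189 miRNAs. These correlated above 0.1 for every letter only in the input comparisons of KD3 with WT (r = 0.20 to 0.60) and of KD6 with KD3 (r = 0.23 to 0.33). There too the letter was used as a block only in alternative fits. Alternatives were other scalings, row handling, filters, blocks, fits on the compared libraries, DESeq2 1.42.0 and leaving out each library. Loci were placed on GENCODE M21 and RefSeq GRCm38.p6.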

Additional observations from a re-analysis of the deposited data

Results flagged for a closer look

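The log2 ratio of miR-26a-5p to miR-26b-5p moved in opposite directions from input to IP in WT and in KD6. Taking libraries of the same letter, IP minus input was -0.56, -0.30 and -0.32 in WT and 0.08, 0.06 and 0.20 in KD6, which differ by 0.50 between the conditions. The ratio was flagged because all 3 WT differences lay below 0 and all 3 KD6 differences above 0. An exact permutation test of differences chosen in this way always gives p = 0.1, the smallest that this design allows. It therefore cannot decide whether the conditions differ. The letters are not known to mark shared cultures. Over 189 miRNAs, same-letter IP and input libraries correlated at r = -0.15 to 0.02 in WT and -0.22 to 0.53 in KD6. They were thus not shown to be paired. Compared without the letters, KD6 IP and input overlapped in this ratio (exact permutation p = 0.7). In KD3 the same differences were 0.13, -0.88 and -0.62.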

How the results depend on the processing

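Of the values under alternative settings, 606 kept their direction and side of the threshold, 32 changed sign, 16 passed only under the alternative and 5 no longer passed. The causes were not tested. The calls of miR-26a-5p in IP against input held in all alternatives.

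With all mapped reads as library size, the changes of miR-26a-5p enrichment were -0.044 (KD3 against WT), -0.071 (KD6 against WT) and -0.027 (KD6 against KD3) and its input difference of KD6 and KD3 was 0.14. For miR-26b-5p the KD6 IP ratio was 0.59 and the change from WT to KD6 -0.78, and for miR-26b-3p the WT and KD6 IP ratios passed at -1.50 and -2.15 and the change from WT to KD6 was -0.65. With library size and no factors, the corresponding values were -0.13 (miR-26a-5p, change from KD3 to KD6), 0.13 (its input, KD6 against KD3), 0.92 and -0.63 (miR-26b-5p), and -1.83 (passing) and -0.52 (miR-26b-3p in KD6). With TMM factors miR-26b-3p was -1.45 in WT IP, which passed, and -0.044 in input of KD6 against WT, and with TMM on the largest row -1.47 and -0.057. Fitted on the compared libraries only, miR-26a-5p input of KD3 against WT passed at 0.33 and miR-26b-3p in WT IP at -1.24; with a replicate block added, a fit chosen after seeing the data, they passed at 0.33 and -1.42. The replicate block over all 18 libraries, by letter or by IP and input pair, changed no call. Without a filter miR-26b-5p input passed for KD6 against WT (0.92) and against KD3 (0.98). Counting distinct read sequences, the IP minus input difference of the ratio of miR-26a-5p to miR-26b-5p was -0.29 (exact permutation p = 0.0428, not adjusted). Such counts rise less than reads do. miR-26a-5p had 61.6 distinct sequences at 1622 reads in KD6 input A and 519.6 at 83998 reads in WT input A. This value therefore does not compare abundance and cannot decide whether the guide strands differ.

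Leaving out each library gave, for miR-26a-5p, changes of 0.44 to 0.87 from WT to KD6 and input differences of -0.20 to 0.033 between KD6 and KD3. For miR-26b-5p the changes ranged from -0.0013 to 0.72 (KD3 against WT), -0.47 to 0.52 (KD6 against WT) and -0.82 to 0.15 (KD6 against KD3), and the input differences from -0.14 to 0.024, 0.41 to 1.26 and 0.46 to 1.29 in the same order. For miR-26b-3p the ranges were -2.13 to -0.79 in WT IP, -2.84 to -1.96 in KD3 IP, -0.24 to 1.10 for the change from WT to KD6 and -0.11 to 0.26 for input of KD6 against WT. The share of miR-26a-2-3p differed by -1.35 to 0.12 percentage points. miR-26a-1-3p, with 59 reads in all, could not be tested, and miR-26b-3p and the values from KD6 input A rest on few reads.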
